A study of Mus musculus with 8 samples.

Results

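The genes described here are the FoxO transcription factors *Foxo1*, *Foxo3* and *Foxo4*, the stress-response gene *Sesn1*, and 6 genes of the autophagy machinery, *Ulk1*, *Becn1*, *Atg5*, *Map1lc3b*, *Gabarapl1* and *Sqstm1*. They were chosen by gene symbol, with earlier results of these data known, which gave 10 of the 54658 gene symbols counted. Each of them was among the 14404 genes with enough reads to be tested. RNA-Seq was performed on primary articular chondrocytes of wild-type mice aged 3 weeks, taken from femoral heads. The proinflammatory cytokine IL-1β was given to 4 samples at 1 ng/mL for 24 h, and 4 samples received vehicle for the same time. The study's methods name high-glucose DMEM with fetal bovine serum as complete medium where they describe transfected murine cells. The strain, the number of mice behind a sample and whether replicates were separate cultures are not given in the sources used here. The p-values therefore measure the spread between these samples, which may be technical. The comparison of IL-1β with vehicle addresses how the transcriptome of these cells responds to an inflammatory stimulus.

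FoxO factors are forkhead proteins that activate genes for stress resistance, cell cycle arrest and autophagy when they are in the nucleus, and the kinase AKT phosphorylates them and keeps them in the cytoplasm. Autophagy encloses cytoplasmic cargo in a double membrane, the autophagosome, and delivers it to the lysosome. The ULK1 kinase complex starts the process, a lipid kinase complex built on Beclin 1 marks the membrane, a conjugation system with ATG5 attaches LC3 and GABARAP proteins to it, and receptors such as p62, the product of *Sqstm1*, bring in ubiquitinated cargo. In cartilage, FoxO factors and autophagy are known to maintain chondrocyte homeostasis. RNA counts measure neither the location of FoxO proteins nor the flux through autophagy.

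With IL-1β, 7 of the 10 genes rose and 0 fell (edgeR's quasi-likelihood test, Benjamini-Hochberg adjusted p under 0.05 over all genes tested). Over all genes tested, 40.2% were called by the same rule, 20.4% as higher and 19.8% as lower. Because the 10 genes were chosen with earlier results known, the comparison with these shares does not test them as a set. The largest rises were those of *Sqstm1*, by 58.2%, and *Ulk1*, by 47.6%, and the other 5 rose by 7.83 to 26.1%. No gene passed a 2-fold change, which 5.21% of all genes tested did (2.86% upward and 2.35% downward), and the 95% interval of each of the 10 lay within 2-fold in either direction. At an unadjusted p under 0.05, 0 genes fell, and with DESeq2 6 rose, 0 fell and 0 passed a 2-fold change. The median log2 fold change was 0.14 over the 10 genes and -0.0012 over all genes tested. In 6 of the 10, the lowest IL-1β value exceeded the highest vehicle value. Over all genes tested, the groups were separate in this direction for 18.7% and in either direction for 36.8%.

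**Figure D1:**
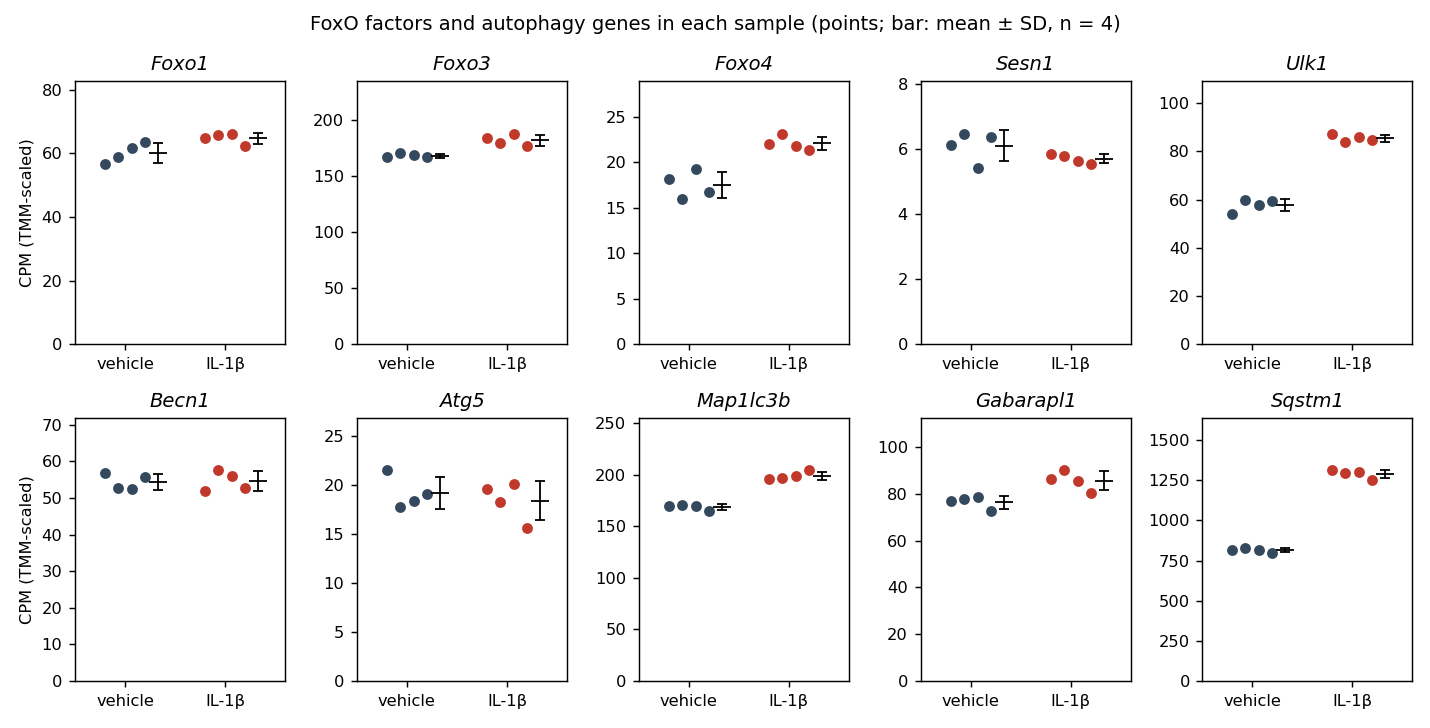
Level of the 10 genes in CPM (reads of a gene relative to all reads of the sample, scaled by TMM) in each vehicle (dark) and IL-1β (red) sample, with the mean ± SD of 4 samples beside the points and axes that start at 0. The groups are separate for *Foxo3*, *Foxo4*, *Ulk1*, *Map1lc3b*, *Gabarapl1* and *Sqstm1* and overlap for *Foxo1*, *Sesn1*, *Becn1* and *Atg5*.

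**Figure D2:**
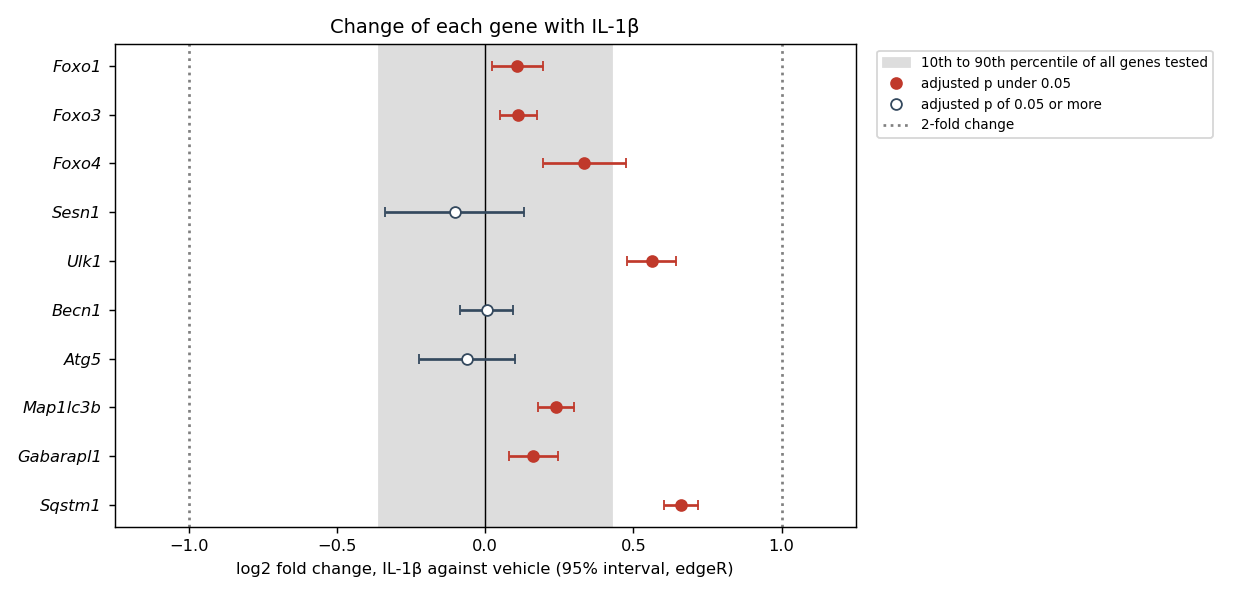
Log2 fold change of the 10 genes with its 95% interval from edgeR, filled where the adjusted p was under 0.05. The gray band holds the log2 fold changes of all genes tested from the 10th percentile (-0.36) to the 90th (0.43), and *Ulk1* (0.56) and *Sqstm1* (0.66) lie above it.

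Total counts were 10992355 to 17456063 per sample. All 8 chondrocyte markers fell with IL-1β, to a summed 4176 to 4587 CPM from 16085 to 16696 CPM with vehicle, and *Col2a1* and *Acan* were still at 2717 to 2997 and 231 to 258 CPM with IL-1β. All 4 osteoblast markers also fell, to a summed 50.0 to 58.2 CPM from 125 to 135 CPM. Of 6 macrophage and monocyte markers, 2 were tested, with 1 higher and 1 lower, and their sum was 6.18 to 7.35 CPM with vehicle against 15.6 to 17.3 CPM with IL-1β, of which *Cd14*, named after its values were seen, held 3.29 to 4.21 and 13.6 to 14.6 CPM. *Ptprc*, the pan-leukocyte marker CD45, was at 0 to 0.433 CPM with IL-1β and 0 to 0.197 CPM with vehicle. The osteoclast list reached 132 to 138 against 109 to 111 CPM, nearly all of it *Ctsk* (131 to 137 against 108 to 110 CPM), while *Acp5* and *Calcr* stayed at or below 0.772 CPM. The fibroblast list summed to 146 to 161 against 141 to 149 CPM, but *Pdpn* rose to 28.0 ± 1.10 from 5.83 ± 0.700 CPM and *Col3a1* fell to 39.8 ± 1.54 from 50.3 ± 2.45 CPM. These 5 genes were also named after their values were seen. The skeletal muscle list was at 0.270 to 0.891 against 0.986 to 1.39 CPM, and the erythroid, endothelial and adipocyte lists reached at most 1.80 CPM in a sample. No marker was at 0 in all samples. In such bulk samples, fewer cells of a type and less RNA per cell cannot be told apart, and the part of these shifts in the results was not tested.

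Levels of different genes were compared per length, in RPKM, the CPM divided by the deposited gene length in kilobases. *Sqstm1* was the highest of the 10 in both groups, at 243 ± 3.75 RPKM (SD, n = 4) with vehicle and 384 ± 7.73 RPKM (SD, n = 4) with IL-1β. With vehicle, 99.1% of the genes tested had a lower level. *Gabarapl1* came next at 38.0 ± 1.35 RPKM (SD, n = 4) with vehicle, followed by *Map1lc3b* at 22.4 ± 0.345 and *Foxo3* at 22.2 ± 0.239 RPKM, whose vehicle samples overlapped. With vehicle, *Ulk1* (8.91 ± 0.402 RPKM) overlapped with *Atg5* (8.16 ± 0.695 RPKM), and *Atg5* with *Becn1* (7.71 ± 0.307 RPKM). *Foxo1* (6.94 ± 0.358 RPKM) and *Foxo4* (5.03 ± 0.414 RPKM) followed without overlap, and *Sesn1* was the lowest of the 10 at 1.53 ± 0.119 RPKM.
With IL-1β the order was the same, but *Foxo3* (24.0 ± 0.657 RPKM) no longer overlapped with *Map1lc3b* (26.5 ± 0.508 RPKM), nor *Ulk1* (13.2 ± 0.246 RPKM) with *Atg5* (7.83 ± 0.843 RPKM). *Atg5*, *Becn1* and *Foxo1* overlapped as neighbors there, and *Atg5* and *Becn1* changed places without IL-1β replicate 1 or without IL-1β replicate 3. The order depends on the length used, since the deposited length is the union of all annotated exons. For *Map1lc3b* it was 7517 bases, 2.85 times the longest coding transcript. Over the longest coding transcript, an alternative chosen after seeing the data, *Map1lc3b* reached 64.0 RPKM with vehicle and 75.5 RPKM with IL-1β and lay above *Gabarapl1* (42.0 and 47.0 RPKM). On this scale, no neighbors in the order overlapped with vehicle, *Foxo3* being at 24.6 and *Atg5* at 8.16 RPKM. *Becn1* (12.5 RPKM) lay above *Ulk1* (11.1 RPKM) there, and below it with IL-1β (12.5 against 16.4 RPKM). The vehicle overlaps given above thus hold for the deposited lengths only.

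**Figure D3:**
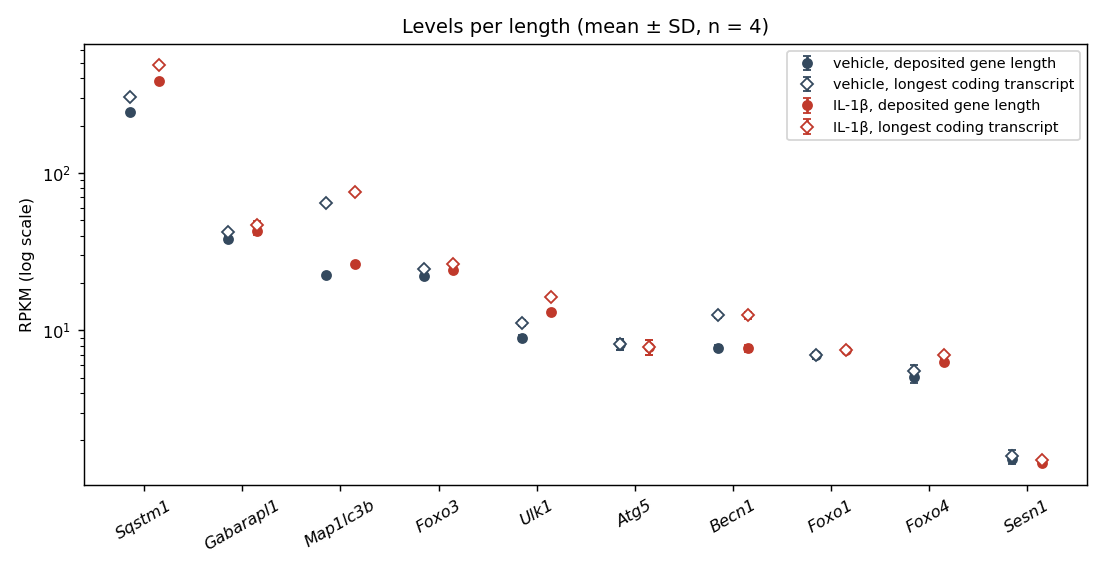
Level per length of the 10 genes on a log axis (RPKM, mean ± SD of 4 samples) with vehicle (dark) and IL-1β (red), over the deposited gene length (circles) and over the longest coding transcript (diamonds). *Sqstm1* lies above the other genes on both scales, while *Map1lc3b* and *Becn1* move up when the longest coding transcript is used.

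*Foxo3*, which encodes a FoxO factor with roles in stress resistance and longevity, was the most abundant FoxO gene and lies on chromosome 10 from 42181841 to 42276755 (minus strand, GRCm38). Its level was 167, 170, 169 and 167 CPM in vehicle replicates 1 to 4 and 184, 179, 188 and 176 CPM in IL-1β replicates 1 to 4. The 4 IL-1β samples were all higher than the 4 vehicle samples. The log2 fold change was 0.11 (SE 0.030, adjusted p = 0.00328, edgeR), a rise of 8.10% (95% interval 3.58 to 12.8%).
*Foxo4*, on chromosome X from 101254528 to 101260873, had 18.1, 16.0, 19.3 and 16.8 CPM with vehicle and 22.0, 23.1, 21.8 and 21.3 CPM with IL-1β. Here too the groups did not overlap, and the log2 fold change was 0.33 (SE 0.069, adjusted p = 0.000218, edgeR), the largest of the FoxO genes. *Foxo4* encodes a FoxO factor that binds the same DNA element as the others.
*Foxo1*, on chromosome 3 from 52268336 to 52353221, encodes the FoxO factor best known from insulin signaling. It had 56.5, 59.0, 61.5 and 63.6 CPM with vehicle and 64.7, 65.8, 66.2 and 62.3 CPM with IL-1β. IL-1β replicate 4 lay below vehicle replicate 4, so that the groups overlapped. The log2 fold change was 0.11 (SE 0.043, adjusted p = 0.0424, edgeR). This call was lost in 10 of 15 alternatives, among them DESeq2 (adjusted p = 0.0996). It was also lost without IL-1β replicate 1, 2 or 3 and without vehicle replicate 1, 2 or 3 (adjusted p = 0.0507 to 0.181, edgeR). Of the exon bases of *Foxo1*, 7.78% are shared with *Gm20402* on the other strand, which had 11 reads in all 8 samples.
*Foxo6*, the remaining family member, had too few reads to be tested, with 21, 14, 22 and 28 reads in the vehicle samples and 10, 9, 13 and 8 reads in the IL-1β samples. When genes with low counts were kept, its log2 fold change was -0.90 (SE 0.30, adjusted p = 0.0201, edgeR), the opposite direction to the other FoxO genes.

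The makeup of the FoxO transcripts was described by the share of each gene in their summed RPKM. *Foxo3* held 64.0 ± 1.35% (SD, n = 4) with vehicle and 63.0 ± 0.680% (SD, n = 4) with IL-1β, and *Foxo1* 20.0 ± 0.819% and 19.6 ± 0.199%, with overlapping samples in both cases. The share of *Foxo4* was 13.4 to 15.5% with vehicle and 16.0 to 17.4% with IL-1β, without overlap. *Foxo6* had 0.904 to 2.02% with vehicle and 0.589 to 0.898% with IL-1β. The summed level of the family was 34.7 ± 0.649 RPKM with vehicle and 38.1 ± 0.912 RPKM with IL-1β.
Whether 2 related genes moved by unequal amounts was tested with the log2 ratio of their counts within each sample, for 5 pairs in all. The ratio of *Foxo1* to *Foxo4* was 0.23 lower on the log2 scale with IL-1β than with vehicle (1.55 ± 0.039 against 1.78 ± 0.14, SD, n = 4; exact permutation test, two-sided, p = 0.0286, adjusted over 5 pairs 0.0476). That of *Foxo3* to *Foxo4* was 3.04 ± 0.064 with IL-1β and 3.27 ± 0.12 with vehicle (the same exact permutation p and adjusted p). With 4 samples in each group, no p below 0.0286 can be reached. The adjusted p depends on how many of the 5 pairs reach that limit, and 1 pair alone would not pass 0.05. The ratio of *Foxo1* to *Foxo3* differed by -0.0046 between the groups (SE 0.041, exact permutation p = 1), so that a difference between their changes was not detected.

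**Figure D4:**
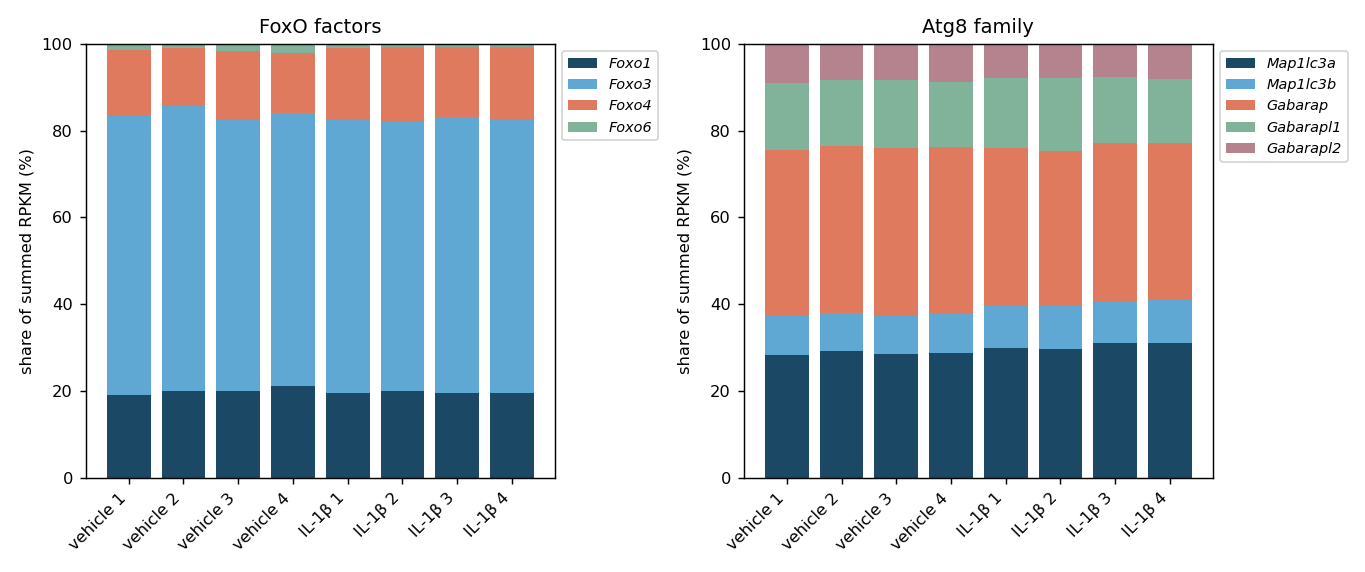
Share of each gene in the summed RPKM of the FoxO factors (left) and of the Atg8 family (right), in percent, over the deposited gene lengths. Each vehicle and IL-1β sample is a stacked bar. *Foxo3* holds over 62% of the FoxO transcripts in every sample, and *Gabarap* and *Map1lc3a* hold the largest shares of the Atg8 family.

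The 3′ UTR of the longest coding *Foxo3* transcript was the only one among the 10 genes to hold a match to the seed of miR-146a-5p, the miRNA that the study is about. The mature miRNA (RefSeq, GRCm38.p6, seed at positions 2 to 8 in capitals) and the matching stretch of *Foxo3* (chr10:42184721-42184750, minus strand, match AGTTCTC in capitals) are shown because they name the site:
mmu-miR-146a-5p: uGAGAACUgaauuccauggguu
Foxo3 3′ UTR: ctccccgcttgAGTTCTCgccattgcctgc
Of 11922 tested genes with an annotated 3′ UTR, 12.6% held AGTTCTC. The match starts at base 1592 of a 3′ UTR of 4490 bases. *Foxo3* was 8.10% higher with IL-1β, and whether the miRNA acts on it was not tested. Only matches to positions 2 to 8 in the longest coding transcript of each gene were searched. The paper's target search took conserved seed sites of several lengths.

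*Sesn1* encodes a sestrin, a stress-induced protein that restrains mTORC1 and is a known FoxO and p53 target, and lies on chromosome 10 from 41809935 to 41908424. It was the least abundant of the 10 genes, with 106, 112, 76 and 97 reads in the vehicle samples and 65, 80, 95 and 78 reads in the IL-1β samples. This is 6.12, 6.47, 5.42 and 6.37 CPM with vehicle against 5.86, 5.77, 5.64 and 5.53 CPM with IL-1β. The IL-1β samples lay within the range of the vehicle samples. The log2 fold change was -0.10 (SE 0.11, adjusted p = 0.521, edgeR), with a 95% interval from -0.34 to 0.13.
Among 18 tested genes of a list of FoxO targets, 6 rose and 8 fell, with a median log2 fold change of -0.11. The extremes were *Sod2*, the mitochondrial superoxide dismutase, at 688 ± 18.3 CPM with IL-1β against 110 ± 2.61 CPM with vehicle (log2 fold change 2.64), and *Sesn3*, another sestrin, at 48.2 ± 2.89 against 84.9 ± 2.34 CPM (log2 fold change -0.81). *Fbxo32*, an atrophy-associated ubiquitin ligase named after its values were seen, was the other target past 2-fold, with a log2 fold change of 1.06. *Trim63* and *Tnfsf10* were not tested, with 4 and 5 reads over the 8 samples. The FoxO target list thus held genes that rose and genes that fell.
Of 18 upstream regulators of FoxO, 4 rose and 7 fell (median log2 fold change -0.042). *Pik3r1*, a regulatory subunit of PI3-kinase, had the largest rise, to 46.0 ± 1.08 from 27.9 ± 2.01 CPM (log2 fold change 0.73), and *Sgk3*, a kinase related to AKT, the largest fall, to 21.9 ± 1.15 from 30.6 ± 0.693 CPM (log2 fold change -0.49).

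*Ulk1*, which encodes the kinase that starts autophagosome formation, lies on chromosome 5 from 110784488 to 110810097 (minus strand). It rose from 54.2, 59.9, 57.7 and 59.5 CPM in the vehicle samples to 87.3, 83.7, 85.8 and 84.5 CPM in the IL-1β samples. The lowest IL-1β sample was above the highest vehicle sample, and the log2 fold change was 0.56 (SE 0.040, adjusted p = 1.87e-12, edgeR), a rise of 47.6% (95% interval 39.4 to 56.3%). Of all genes tested, 93.3% had a lower log2 fold change.
Of the other genes of the ULK1 complex, *Atg13*, a scaffold subunit, also rose (54.7 ± 3.40 against 48.9 ± 2.16 CPM, log2 fold change 0.16, adjusted p = 0.00521, edgeR), with overlapping samples. *Ulk2*, the kinase most like *Ulk1*, had 43.2 ± 2.69 CPM in the vehicle group and 39.9 ± 0.715 CPM in the IL-1β group (adjusted p = 0.0586, edgeR). *Rb1cc1* had 61.5 ± 5.29 against 57.7 ± 4.11 CPM and *Atg101* 14.0 ± 0.197 against 13.5 ± 1.93 CPM, with adjusted p-values of 0.226 and 0.722 (edgeR). No gene of the complex fell by edgeR or DESeq2, against 1 at an unadjusted p under 0.05. With 1 RUVs factor, or without vehicle replicate 1 or 2, 1 gene of the complex fell.

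*Becn1* encodes Beclin 1, a subunit of the class III PI3-kinase complexes, and lies on chromosome 11 from 101285952 to 101302286 (minus strand). It had 56.8, 52.7, 52.5 and 55.9 CPM with vehicle and 51.9, 57.5, 56.1 and 52.6 CPM with IL-1β. The samples of the groups were interspersed, and the log2 fold change was 0.0046 (SE 0.044, 95% interval -0.086 to 0.095, adjusted p = 0.948, edgeR), with a sign that turned in 6 of 15 alternatives, among them those without IL-1β replicate 2 or 3 or without vehicle replicate 2 or 3. Of its exon bases, 43.9% are shared with *Cntd1* on the other strand, which had 41 reads in all 8 samples.
Of 8 genes of these complexes, 1 rose and 2 fell. *Pik3r4*, a regulatory subunit, rose with a log2 fold change of 0.17, and *Nrbf2*, another subunit, fell to 14.2 ± 0.492 from 18.3 ± 0.857 CPM (log2 fold change -0.37). The other gene that fell was *Uvrag*, named after its values were seen. Only 1 gene fell without IL-1β replicate 3 or 4, without vehicle replicate 1 or 3, or with DESeq2, and 2 genes rose without IL-1β replicate 1.
In the membrane supply and lipid-binding step (ATG9, ATG2 and WIPI proteins), 6 of 10 genes rose and 0 fell, also 0 at an unadjusted p under 0.05 and with DESeq2, which had 5 that rose. The median log2 fold change was 0.25. *Wipi1*, which binds the lipid made by the class III PI3-kinase, had the largest rise, to 70.8 ± 2.70 from 37.6 ± 2.30 CPM (log2 fold change 0.92, SE 0.046, adjusted p = 5.52e-16, edgeR), and *Atg9a*, a transmembrane lipid scramblase, the smallest (log2 fold change 0.13).

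*Atg5*, on chromosome 10 from 44268358 to 44364291, encodes the protein that is joined to ATG12 in the conjugation system. It had 21.5, 17.8, 18.4 and 19.1 CPM with vehicle and 19.6, 18.3, 20.1 and 15.7 CPM with IL-1β. The highest value was in a vehicle sample and the lowest in an IL-1β sample, with the rest intermingled. The log2 fold change was -0.061 (SE 0.079, 95% interval -0.22 to 0.10, adjusted p = 0.594, edgeR), and it was above 0 without IL-1β replicate 4 (0.013) or without vehicle replicate 1 (0.00083).
Of 11 genes of the conjugation system, 1 rose, 1 fell and 9 were not called, with a median log2 fold change of 0.020. The one that rose was *Atg7*, which encodes the activating enzyme of both conjugation reactions, at 42.8 ± 1.65 against 28.8 ± 2.06 CPM (log2 fold change 0.57, SE 0.053, adjusted p = 4.31e-10, edgeR). The one that fell was *Atg3*, which encodes the conjugating enzyme for LC3, at 54.7 ± 4.25 against 63.9 ± 1.44 CPM (log2 fold change -0.22). Without IL-1β replicate 1 or vehicle replicate 1, or at an unadjusted p under 0.05, 2 genes fell.

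*Map1lc3b* encodes LC3B, the protein most used to mark autophagosomes, and lies on chromosome 8 from 121590361 to 121598760. It had 170, 170, 169 and 165 CPM with vehicle and 196, 196, 199 and 204 CPM with IL-1β. All IL-1β samples were above all vehicle samples, and vehicle replicate 4 was lower than the other 3 vehicle samples. The log2 fold change was 0.24 (SE 0.030, adjusted p = 1.23e-07, edgeR), a rise of 18.0% (95% interval 13.2 to 23.1%). It shares 0.772% of its exon bases with *Zcchc14* on the other strand, which fell (log2 fold change -0.33).
*Gabarapl1*, on chromosome 6 from 129533160 to 129542346, encodes a member of the GABARAP branch of the family and is a known FoxO target. It had 76.8, 77.9, 78.7 and 72.6 CPM with vehicle and 86.6, 90.1, 85.6 and 80.2 CPM with IL-1β. The groups did not overlap, with the lowest IL-1β value close to the highest vehicle value, and the log2 fold change was 0.16 (SE 0.040, adjusted p = 0.00174, edgeR). Of its exon bases, 28.3% are shared with *1700101I11Rik* on the other strand, which had 33 reads in all 8 samples.
*Map1lc3a*, which encodes another LC3 protein, also rose, to 96.6 ± 3.98 from 83.7 ± 2.16 CPM (log2 fold change 0.21, adjusted p = 3.87e-05, edgeR). *Gabarap* had 175 ± 3.88 CPM in the vehicle group and 179 ± 4.94 CPM in the IL-1β group, and *Gabarapl2* 49.1 ± 1.34 and 48.9 ± 0.992 CPM (adjusted p = 0.417 and 0.910, edgeR). Thus 3 of the 5 Atg8 genes rose and 0 fell, with the same counts from DESeq2 and 0 lower at an unadjusted p under 0.05. In the summed RPKM of the family, *Gabarap* held the largest share, 38.3 ± 0.351% with vehicle and 36.1 ± 0.368% with IL-1β, followed by *Map1lc3a* with 28.7 ± 0.332 and 30.4 ± 0.744%. The share of *Map1lc3b* was 9.07 ± 0.112% with vehicle and 9.84 ± 0.232% with IL-1β, over the deposited lengths. This was below the share of *Gabarapl1* (15.4 ± 0.359 and 15.8 ± 0.875%). Over the longest coding transcript, *Map1lc3b* instead lay above *Gabarapl1* (64.0 against 42.0 RPKM with vehicle). Its place among the shares thus depends on the length used, and shares were not computed on that scale. The ratio of *Map1lc3b* to *Gabarapl1* differed by 0.076 on the log2 scale between the groups (SE 0.050, exact permutation p = 0.2, adjusted 0.25), with overlapping samples.

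*Sqstm1*, on chromosome 11 from 50199366 to 50210827 (minus strand), encodes p62, which binds ubiquitinated cargo and LC3, is itself degraded by autophagy, and also binds KEAP1. Its level was 817, 830, 813 and 800 CPM in the vehicle samples and 1312, 1293, 1301 and 1253 CPM in the IL-1β samples. The IL-1β samples formed a group well above the vehicle samples. The log2 fold change was 0.66 (SE 0.028, adjusted p = 9.09e-18, edgeR), a rise of 58.2% (95% interval 52.1 to 64.6%) and above that of 94.8% of all genes tested. Of its exon bases, 17.3% are shared with *Mrnip* on the other strand, which had 296 reads in all 8 samples, against at least 11400 reads of *Sqstm1* in each.
*Sqstm1* rose by more than *Map1lc3b*, with a log2 ratio of 2.70 ± 0.055 with IL-1β and 2.27 ± 0.011 with vehicle (SD, n = 4; exact permutation test, two-sided, p = 0.0286, adjusted 0.0476).
Among 12 autophagy receptors, 7 rose and 1 fell, with a median log2 fold change of 0.12. *Bnip3*, a mitophagy receptor, rose to 118 ± 1.65 from 60.6 ± 1.20 CPM (log2 fold change 0.96, SE 0.035, adjusted p = 3.5e-19, edgeR), and its relative *Bnip3l*, named after its values were seen, rose to 222 ± 7.05 from 117 ± 4.03 CPM. *Ncoa4*, the receptor for ferritin, fell (56.4 ± 1.20 against 62.8 ± 2.69 CPM, log2 fold change -0.15).
The 6 genes of the KEAP1-NRF2 list, the antioxidant pathway that p62 feeds into, all rose, with a median log2 fold change of 0.51 and 0 lower at an unadjusted p under 0.05 or with DESeq2. *Hmox1*, heme oxygenase 1, rose most, to 850 ± 66.1 from 367 ± 7.22 CPM (log2 fold change 1.21), and *Keap1* least (log2 fold change 0.29).

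Of 7 genes for the fusion of autophagosomes with lysosomes, 3 rose and 1 fell, from *Tecpr1* (log2 fold change 0.32) to *Epg5* (-0.15). Of 15 genes of the TFEB family and the lysosome, 9 rose and 2 fell (median log2 fold change 0.14). *Ctsl*, the protease cathepsin L, rose to 145 ± 3.11 from 101 ± 2.78 CPM (log2 fold change 0.53), while *Tfeb*, a transcription factor for lysosomal genes, fell to 9.26 ± 0.802 from 13.7 ± 0.868 CPM (log2 fold change -0.58, adjusted p = 6.64e-06, edgeR). Its relatives *Tfe3* and *Mitf*, named after their values were seen, rose, with log2 fold changes of 0.29 and 0.50.
In the list of mTORC1, AMPK and TSC genes, which restrain or permit autophagy, 5 of 14 rose and 4 fell. *Ddit4*, a stress-induced inhibitor of mTORC1, rose to 261 ± 14.6 from 193 ± 6.82 CPM (log2 fold change 0.44). *Deptor*, which encodes another inhibitor of mTOR, fell to 41.8 ± 1.01 from 83.9 ± 1.95 CPM (log2 fold change -1.0, SE 0.040, adjusted p = 2.65e-18, edgeR), the only gene of the 13 lists past a 2-fold fall. With DESeq2, or without IL-1β replicate 2 or 4 or vehicle replicate 3, 2 genes of this list fell.
Over all lists without the 10 genes, 49 of 121 genes tested rose (40.5%) and 25 fell (20.7%), against 20.4% and 19.8% over all genes tested, and the median log2 fold change was 0.069. The lists were also chosen with earlier results of these data known, and the genes compared were not matched for level. These shares therefore do not test the lists as a set.

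**Figure D5:**
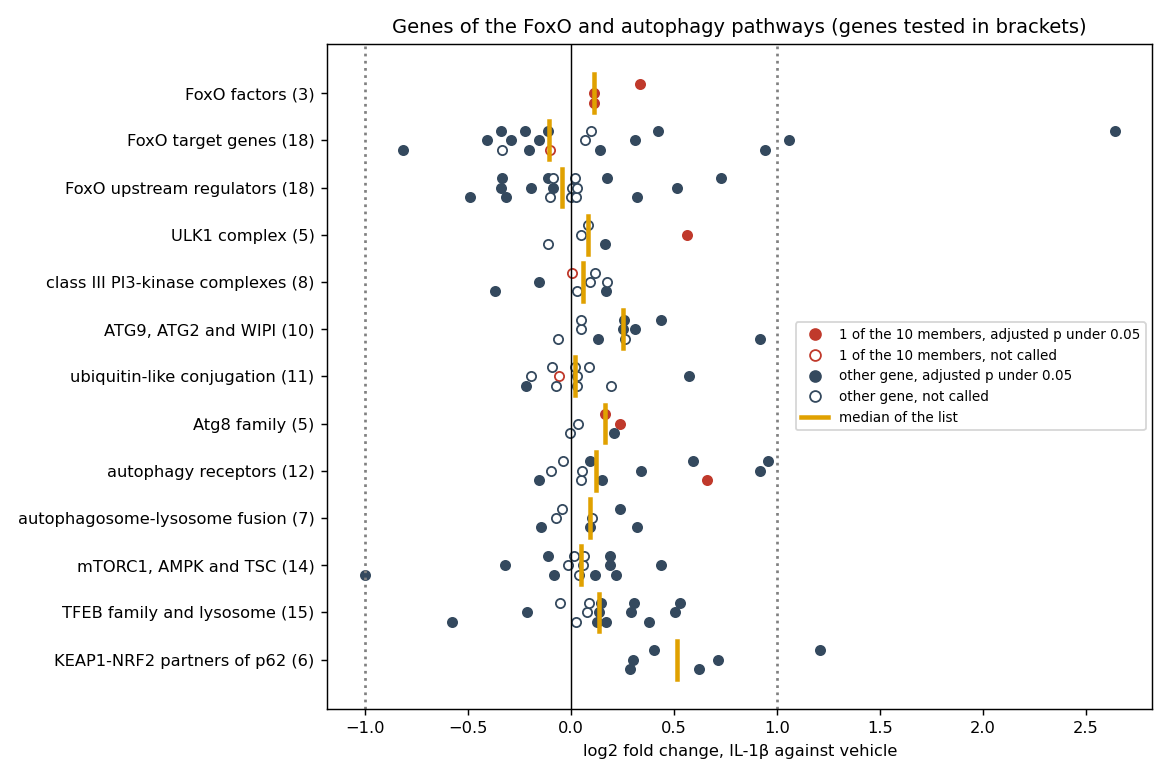
Log2 fold change with IL-1β of each tested gene of the 13 pathway lists (points, filled where the adjusted p was under 0.05, red for the 10 genes) with the median of each list (yellow bar) and dotted lines at a 2-fold change. The 6 KEAP1-NRF2 genes all lie to the right of 0, and most conjugation genes lie near 0.

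Promoter sequences from RefSeq (GRCm38.p6, 250 bases before to 50 bases after a transcription start) matched 8 of the 10 genes, with 9 promoters, and were missing for *Foxo4* and *Becn1*. They were searched on both strands for 6 motifs. GTAAACA, the core element bound by FoxO factors, was in 1 of the 9, against 3.65% of 32851 promoters. CACGTG, the core of the CLEAR element bound by TFEB, was in 1 of 9, against 7.15%, and TGACNNNGC, the core of the antioxidant response element, in 1 of 9, against 12.4%. CAAAACA (6.28% of promoters), the AP-1 site TGANTCA (7.81%), which can overlap with TGACNNNGC, and GGGACTTTC, the first 9 bases of the NF-κB consensus (0.353%), were in 0 of the 9. The stretches around the 3 matches are shown, each with the motif in capitals, because they are the places where the FoxO, TFEB and NRF2 elements named above occur next to these genes:
Sesn1, FoxO core on the reverse strand (chr10:41810587-41810611, plus strand): accttctacTGTTTACcagcctttt
Atg5, CACGTG (chr10:44268316-44268339, plus strand): agcgcttgcCACGTGgtcttggtg
Map1lc3b, TGACNNNGC (chr8:121590433-121590459, plus strand): cgagtcaccTGACTCGGCtgcggactg
*Sesn1* and *Atg5* had no call, and *Map1lc3b* rose by 18.0%. A match is a description of the sequence and does not show that a factor binds there.

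The genes whose profile over the 8 samples was most like that of a FoxO gene were found by the root mean square difference of log2 CPM, each gene centered on its own mean. For *Foxo1* they were *Kat6b*, *Syngr2* and *Fbxl18*, with differences of 0.022 to 0.024. For *Foxo3* they were *Papola* (0.017), *Ccni* (0.018) and *Pcnx3* (0.020), and for *Foxo4* *Snx30* (0.030), *Dpf1* (0.041) and *Fgf2* (0.045).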

How the data were processed

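Per the labels and the study's methods, cutadapt, STAR (mm10, GENCODE vM20; the sources differ on the version of STAR) and featureCounts gave the counts that the authors deposited, as whole numbers per gene symbol. Whether these precede or follow batch correction with RUVseq is not stated. A column of gene lengths (unit: other), also deposited, served for RPKM. It equaled the total exon length in GENCODE vM21, of the same assembly (GRCm38), for each of the 10 genes, and positions are from vM21. Whether counting used strand is not given in the sources used here, so that reads in exons shared with a gene on the other strand cannot be assigned.

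After TMM scaling, the quasi-likelihood test of edgeR 4.0.16 (limma 3.58.1, R 4.3.3) compared IL-1β with vehicle, treatment being the sole covariate, in the 14404 genes exceeding 1 CPM in 4 or more samples. SEs are of the log2 fold change. In counts simulated for this comparison from these 14404 genes, 200 were changed by 2-fold or 4-fold, of which 197 were among the 14205 that passed the filter. Of those changed 2-fold, edgeR recovered 96 of 97 and DESeq2 90 of 97. Both recovered 100 of 100 changed 4-fold, with 11 false calls for edgeR and 1 for DESeq2. Changes below 2-fold, such as those of the genes described here, were not simulated, so these rates do not cover them. The limit that a count of 0 allows (3 counts) is 0.172 to 0.273 CPM, for counting error only. The alternatives were DESeq2 1.42.0, other scalings and filters, a replicate block, 1 RUVs factor, TPM, another gene length, and each sample left out. Python 3.11.15, scipy 1.17.1 and matplotlib 3.10.9 were also used.

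The 10 genes and the lists were chosen with earlier results of these data known. Named genes are the 10, the genes with the largest and smallest log2 fold change among those called in each list, all genes of the FoxO, ULK1 and Atg8 lists, 3 markers, and the 3 genes nearest to each FoxO gene. Others are marked as named after their values were seen.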

Additional observations from a re-analysis of the deposited data

Results flagged for a closer look

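Among 98 sets of 4 values (the named genes tested and the total counts, in each group), 5 held a sample whose distance from the other 3 exceeded Dixon's 95% critical value. About 1 set in 20, or 4.9 here, would do so by chance. Of the 10 genes, this concerned *Map1lc3b*, at 165 CPM in vehicle replicate 4, while the other vehicle samples had 169 to 170 CPM. *Ccni* was also low in that sample, at 184 CPM, the others being at 189 CPM. In IL-1β replicate 1, *Ctsl* was at 141 CPM, below the 146 to 147 CPM of the other IL-1β samples, and *Pik3r1* was at 44.4 CPM, below 46.3 to 46.7 CPM. *Gabarap* reached 186 CPM in IL-1β replicate 3, above the 175 to 177 CPM of the rest. Between vehicle replicate 4 and vehicle replicates 1 and 2, the counts had a chi-square per degree of freedom of 6.34 and 6.24. The other pairs within a group had 1.98 to 3.26, among them vehicle replicates 3 and 4 with 2.75. The source of this difference was not tested. Without vehicle replicate 4, 7 of the 10 genes were still called as higher.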

How the results depend on the processing

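The calls of *Foxo3*, *Foxo4*, *Ulk1*, *Map1lc3b*, *Gabarapl1* and *Sqstm1* as higher were the same in all 15 alternatives. *Sesn1*, *Becn1* and *Atg5* were not called in any of the 15, though the sign of *Becn1* and *Atg5* turned in some. For *Foxo1*, the log2 fold change was 0.11 with DESeq2 (adjusted p = 0.0996), 0.10 with the total library size (0.0558), 0.10 without a filter (0.0958), 0.11 with the replicate block (0.0553) and 0.077 to 0.14 with single samples left out. For *Becn1* it was -0.00043 with the total library size, -0.00098 without a filter and -0.019 to 0.027 with single samples left out, and for *Atg5* -0.11 to 0.013. With single samples left out, the difference in the log2 ratio was -0.030 to 0.027 for *Foxo1* to *Foxo3*, -0.27 to -0.18 for *Foxo1* to *Foxo4*, -0.27 to -0.17 for *Foxo3* to *Foxo4* and 0.41 to 0.45 for *Sqstm1* to *Map1lc3b*. For the last 3 pairs the exact permutation p, adjusted, was then 0.0952, the smallest that 3 samples against 4 allow here, and a scaling of whole samples leaves these ratios as they are. In the order of levels, 4 genes with IL-1β and 5 with vehicle changed places over the longest coding transcript, 0 with TPM, and 0 to 2 with IL-1β and 0 with vehicle when single samples were left out. The number of genes of the lists that rose was 49 to 56 over the alternatives. Of the 14404 genes tested, 751 passed 2-fold, against 1206 of 32379 without a filter.

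The replicate numbers of the groups mark no pairs known from the labels. Deviations from the group means had r of -0.069 to 0.035 across genes between same-numbered samples, and 0 of the 4 pairs had r over 0.1. The replicate block gave 5643 genes called, against 5796 without it, and changed no call of the 10 genes but that of *Foxo1*. At 65 to 112 reads a sample, *Sesn1* had the widest interval of the 10 genes. TMM and the other scalings moved the median of all genes by less than 0.01 on the log2 scale.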
